A study of Homo sapiens with 4 samples.

Results

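TEAD4 peaks of 1 kb or more were examined in MKN28 and SNU216, 2 established human gastric cancer cell lines profiled by chromatin immunoprecipitation followed by sequencing (ChIP-seq). The members were chosen by their measured width: every interval of either deposited peak list that spans at least 1000 bp, end minus start, on chromosomes 1 to 22 and X. They numbered 1754 of 51017 deposited peaks. MKN28 held 1594 of them among 39443 peaks on those chromosomes (4.04%, 95% interval 3.85 to 4.24), and SNU216 held 160 among 11522 (1.39%, 1.18 to 1.62). The peaks of 1 kb or more are called broad below and all others narrower. Another 3 MKN28 and 2 SNU216 peaks of that width lay outside chromosomes 1 to 22 and X and were left out.

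Each line gave 1 library from chromatin cross-linked with formaldehyde and pulled down with the same TEAD4 antibody (Abnova), and 1 input library made without antibody. The names of the deposited lists pair each TEAD4 library with the input of its line. The labels give no treatment, genotype change or time point, so the groups differ in the cell line. Without replicates, differences between the lines could not be set against the spread between samples, and no p-value is given. Intervals are exact Clopper-Pearson intervals that cover counting error only, and neighbouring peaks are not independent. The lists carry no read numbers, so the depth behind each peak is unknown.

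TEAD4 is one of the TEAD transcription factors, which bind a short DNA motif and recruit the co-activators YAP and TAZ, the nuclear effectors of the Hippo pathway. In epithelial and cancer cells TEAD factors mostly occupy distal enhancers, often together with AP-1 factors. A sequence-specific factor usually gives narrow peaks. A wide called interval can span more than 1 binding site, and wide intervals are also known from the repeat-rich sequence beside centromeres. Genes are mentioned below only as textbook background on a cytogenetic band, since no peak was assigned to a gene.

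Width was the selecting measure, so the following values describe the choice. Broad MKN28 peaks had a median width of 1148 bp (quartiles 1064 and 1314 bp) and reached 4994 bp. Broad SNU216 peaks had a median of 1175.5 bp (quartiles 1056 and 1504 bp) and reached 4946 bp. A width of at least 1500 bp was reached by 205 of the MKN28 members (12.9%) and 41 of the SNU216 members (25.6%). At least 2000 bp was reached by 47 (2.95%) and 21 (13.12%). The MKN28 set was 9.96 times the size of the SNU216 set, and MKN28 had more very wide intervals in number, whereas their share within the set was larger in SNU216. Broad peaks made up 8.99% of the sequence covered by the MKN28 list and 4.46% of that covered by the SNU216 list.

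The width limit cut through a continuous distribution. In MKN28, 309 peaks lay within 50 bp above it and 419 within 50 bp below it, with median scores of 328 and 310. In SNU216, 36 lay on each side, with median scores of 337 and 298. The MKN28 members at exactly 1000 bp were in 9q34.11 (score 210), 4q35.2 (score 86.1) and 8q24.21 (score 66.8). The 3 strongest MKN28 peaks of 999 bp, just outside, were in 2q21.1 (score 1872), 15q26.1 (score 1786) and 1p32.3 (score 1525). In SNU216 the nearest members were in 1p31.3 (1000 bp), 20q11.23 (1001 bp) and 21p11.2 (1002 bp). The nearest non-members were in 7q31.2 and 19q13.12 (997 bp each) and 11q24.3 (996 bp).

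The authors' peak caller gave each peak a score, which early versions of that program write as a multiple of −log10 of a p-value. Neither the lists nor the labels state the scale here. Score and width come from the same reads, so their relation is a description. Broad MKN28 peaks had a median score of 383 (quartiles 206 and 715), against 95.8 for narrower ones. Broad SNU216 peaks had a median of 227 (quartiles 76.1 and 491), against 84.7. Scores of 100 or more were held by 1472 of the 1594 broad MKN28 peaks (92.35%; 49.9% of all MKN28 peaks). The SNU216 count was 107 of 160 (66.9%; 42.2% of all SNU216 peaks). In SNU216, 53 of 160 (33.1%, 25.9 to 41.0) had a score below 100, compared with 122 of 1594 in MKN28 (7.65%, 6.396 to 9.07).

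Peaks of each list were ranked by score and split into 10 equal groups. In MKN28 the share of broad peaks climbed from 0.127% in the lowest group to 4.94% in the eighth, 9.38% in the ninth and 18.5% in the highest. In SNU216 it lay between 0.521% and 1.48% in the 9 lower groups and was 6.07% in the highest. The highest group held 730 broad MKN28 peaks (45.8% of the members) and 70 broad SNU216 peaks (43.8%; by construction this group holds 10% of each list). Among the 100 strongest peaks, 42 of MKN28 and 16 of SNU216 were broad. Across whole lists, width and score were correlated (Spearman coefficient 0.589 in MKN28 and 0.607 in SNU216). Within the broad peaks the correlation was 0.112 in MKN28 and -0.211 in SNU216. Without those within 1 Mb of a centromere, variable or stalk band it was 0.129 (1530 peaks) and -0.0911 (118 peaks). These correlations are across peaks of 1 library, which share its depth.

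**Figure D1:**
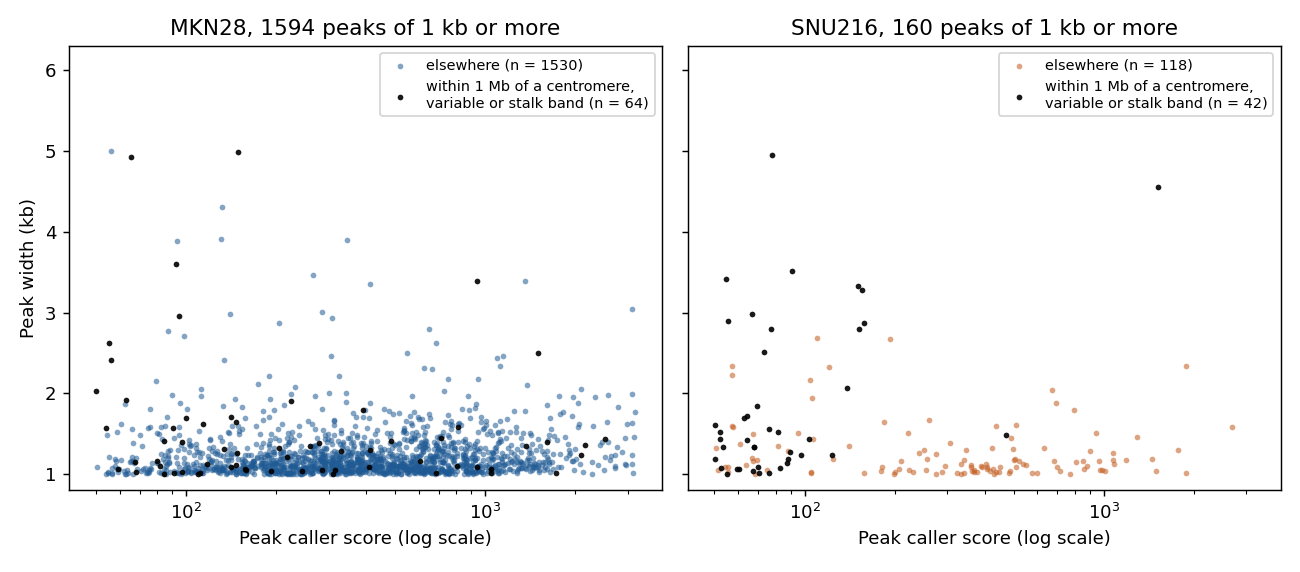
Width in kb against the peak caller score (log scale) of every TEAD4 peak of 1 kb or more, 1 point per peak, for MKN28 (left) and SNU216 (right). Black points lie within 1 Mb of a centromere, variable or stalk band (64 in MKN28 and 42 in SNU216), and in SNU216 they make up most of the wide, low-scoring points.

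The widest MKN28 intervals were mostly not the strongest. The widest, 4994 bp in 5p15.1 (chromosome 5, 17517536 to 17522529), scored 56.1. It was followed by 4985 bp in 22q11.21 (chromosome 22, 18738363 to 18743347, score 149) and 4931 bp in 6p11.1 (chromosome 6, 58775300 to 58780230, score 65.7). The fourth was in 9q21.11 (4310 bp, score 132). The fifth was in 1q23.3 (chromosome 1, 161436453 to 161440356, 3904 bp, score 131), a band that holds a large cluster of transfer RNA genes. Of the other 5 in the 10 widest, 4 were in 22q11.21 (3388 to 3894 bp, scores 93.1 to 939) and 1 was in 9q13 (3603 bp, score 92.4). In all, 5 of the 10 widest MKN28 peaks were in the single band 22q11.21.

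All 10 of the widest SNU216 peaks lay within 1 Mb of a centromere, variable or stalk band. The widest was in 10q11.21 (chromosome 10, 42533111 to 42538056, 4946 bp, score 77.7), and a second peak of 2900 bp (score 55.5) lay a few kb away in that band. The second was in 6p11.1 (chromosome 6, 58775655 to 58780208, 4554 bp, score 1514). There were 3 in 4p11, of 3512, 3412 and 3281 bp with scores of 90.7, 54.5 and 156. The others were in 19q11 (3329 bp, score 151), Xq11.1 (2978 bp, score 66.9), 1p11.2 (2872 bp, score 159) and 1q21.1 (2792 bp, score 77.3). Only the 6p11.1 and 19q11 peaks among these 10 overlapped an MKN28 peak.

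None of the strongest broad peaks named here was among the 10 widest of its list, except the 6p11.1 peak of SNU216. In MKN28 the 5 highest scores among members were in 8q24.21 (chromosome 8, 128821303 to 128823068, 1766 bp, score 3170), the band of the MYC oncogene, and in 1p13.2 (1461 bp, score 3146), 2q36.3 (1015 bp, score 3132), 5p15.33 (3044 bp, score 3100) and 3q22.2 (1991 bp, score 3100). A score of exactly 3100 was shared by 5 members, of which the 2 widest are named here, and these have no order among themselves. The 8q24.21, 1p13.2 and 2q36.3 peaks each overlapped an SNU216 peak, as did 3 of the 5 members at 3100. In SNU216 the 5 highest were in 20q13.33 (chromosome 20, 60936178 to 60937760, 1583 bp, score 2686), the band of the laminin gene LAMA5, and in 10p11.22 (2332 bp, score 1884), 9q31.3 (1009 bp, score 1878), 8q24.21 (1296 bp, score 1766) and 6p11.1 (4554 bp, score 1514). All 5 overlapped an MKN28 peak.

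The lowest-scoring members lay close to the lowest score of either list (50 in MKN28 and 50.01 in SNU216). In MKN28 they were 2 peaks in 1q21.1 (2033 bp at a score of 50.2 and 1571 bp at 53.9), 1 in 8q22.3 (1088 bp, 50.5), 1 in 8q23.3 (1003 bp, 54.0) and 1 in 22q11.21 (1481 bp, 54.6). In SNU216 they were in 21p11.1 (1613 bp, 50.1), 1q21.1 (1186 bp, 50.2), 5q13.2 (1329 bp, 50.5), 17q12 (1049 bp, 51.4) and 1q12 (1522 bp, 52.0). The list of the other line was not used to choose a line's members, but the overlap between lists is not independent of the width rule. A wide peak offers a larger target, width and score were correlated, and the overlap of narrower MKN28 peaks itself went from 4.44% in the lowest score group to 50.1% in the highest. Overlaps over whole lists are therefore given as descriptions, with values by score group after them. Of these 10 lowest-scoring members, only the 8q22.3 peak overlapped a peak of the other list.

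Broad MKN28 peaks coincided with an SNU216 peak more often than narrower ones in these lists. The count was 577 of 1594 (36.2%, 33.8 to 38.6), by at least 1 shared bp, against 17.1% of all MKN28 peaks and 16.3% (15.9 to 16.7) of the narrower ones. Midpoint rules use the same window for every width. With midpoints within 200 bp, the planned setting, the shares were 21.4% (19.4 to 23.5) of broad and 15.7% (15.4 to 16.1) of narrower peaks. With an SNU216 midpoint within 1 kb, a setting added after seeing the data, the shares were 36.2% and 17.4%. When 50% of both peaks had to be shared, they were 13.9% (12.2 to 15.7) and 14.1% (13.7 to 14.4). That rule itself depends on width, since the partner must be at least 50% as wide as the broad peak. All SNU216 peaks had a median width of 408 bp, so many could not meet it with a peak of 1 kb or more. With the MKN28 list cut to the length of the SNU216 list by score, the shares were 39.78% of broad and 34.65% of narrower peaks. In SNU216 the count was 90 of 160 (56.2%, 48.2 to 64.1), against 59.3% of all SNU216 peaks and 59.3% (58.4 to 60.2) of the narrower ones. The order in SNU216 turned with the setting: at a width limit of 750 bp the shares were 72.1% of wider and 58.7% of other peaks, and at 1500 bp they were 29.3% and 59.4%. The levels of the lines are not comparable, since each list was matched against one of another length.

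Within groups of like score, broad MKN28 peaks had the higher share with an SNU216 peak in most of the weaker groups and a like or lower share in the 3 strongest. In the second lowest group the shares were 31.6% of 19 broad and 5.15% of narrower peaks, and in the seventh 28 of 112 and 17.3%. In the highest-scoring group the shares were 50.3% of 730 broad and 50.1% of 3215 narrower peaks. In the ninth group they were 28.6% and 30.5%, and in the eighth 21.5% and 24.27%. SNU216 differed. In its highest group 94.3% of 70 broad peaks and 91.2% of narrower peaks overlapped an MKN28 peak. In the eighth group 30.0% of 10 broad and 76.6% of narrower peaks did so, in the seventh 14.3% of 7 and 70.3%, and in the fifth 0 of 9 (floor of 3 counts, 33.3%) and 59.6%. In each of the 9 lower SNU216 groups the broad peaks, 6 to 17 a group, had the lower share.

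**Figure D2:**
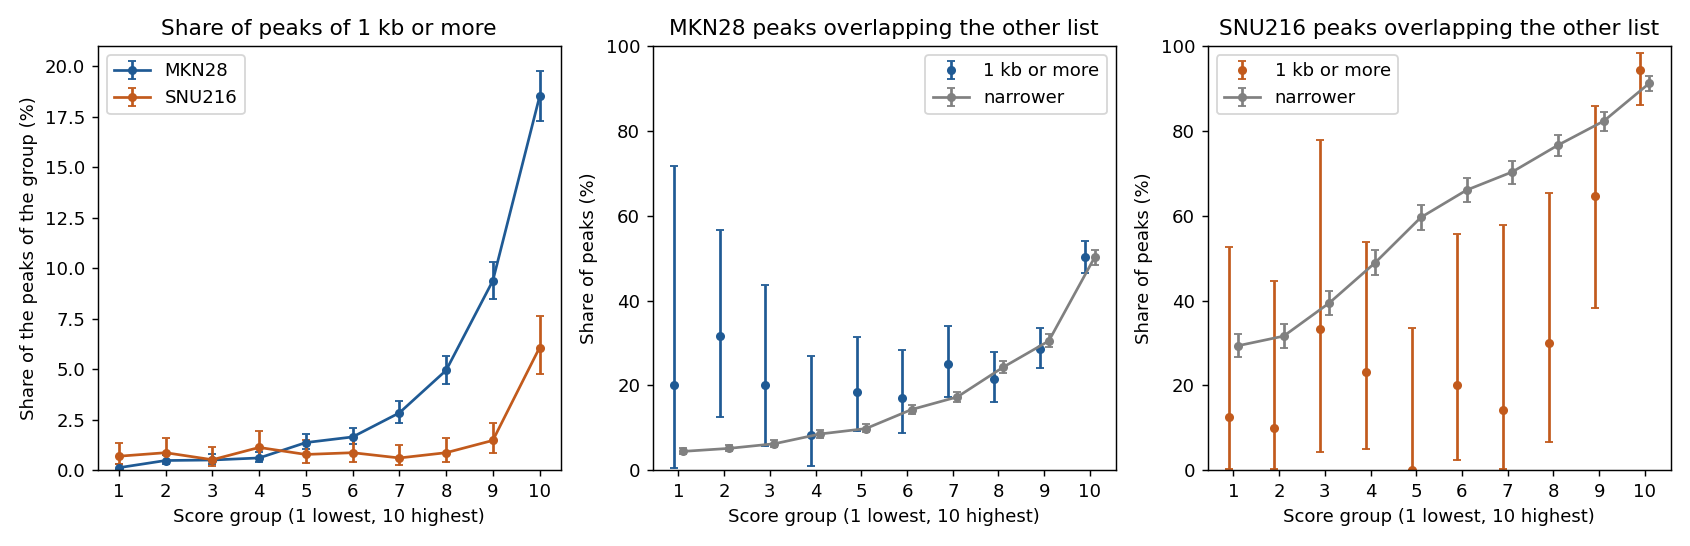
Left, share of peaks of 1 kb or more in each of 10 score groups of each list. Middle and right, share of MKN28 and of SNU216 peaks that overlap the other list, for peaks of 1 kb or more (coloured) and narrower ones (grey). Bars are exact 95% intervals. The MKN28 shares of both widths meet in the strongest groups (50.3% and 50.1% in group 10), whereas in SNU216 the broad peaks of groups 1 to 9 lie below the narrower ones.

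Many broad SNU216 peaks lay beside centromeres. Within 1 Mb of a centromere band lay 31 of the 160 broad SNU216 peaks (19.4%, 13.6 to 26.4), against 2.24% of all SNU216 peaks. The MKN28 count was 45 of 1594 (2.82%, 2.07 to 3.76), against 1.76%. With the variable bands of heterochromatin and the stalks of acrocentric chromosomes added, a setting chosen after seeing the data, the counts were 42 in SNU216 (26.25%, 19.6 to 33.8; 2.76% of all peaks) and 64 in MKN28 (4.02%, 3.11 to 5.10; 2.2% of all peaks). No such difference was seen at chromosome ends, where 3 broad SNU216 peaks (1.88%; 1.83% of all) and 31 broad MKN28 peaks (1.94%; 1.86% of all) lay within 1 Mb.

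Of the 53 broad SNU216 peaks with a score below 100, 33 (62.3%, 47.9 to 75.2) lay within 1 Mb of a centromere, variable or stalk band. Of the 107 with a score of at least 100, 9 did (8.41%, 3.92 to 15.4). Scores of at least 100 were held by 21.4% of broad SNU216 peaks near those bands and 83.05% elsewhere. For narrower SNU216 peaks the shares were 28.6% and 42.2%. The 42 broad SNU216 peaks near those bands had a median score of 71.6 and a median width of 1465 bp. Of them, 8 (19.0%, 8.60 to 34.1) overlapped an MKN28 peak. The 118 broad SNU216 peaks elsewhere had a median score of 362 and a median width of 1122.5 bp, and 82 of them (69.5%, 60.3 to 77.6) overlapped an MKN28 peak, against 59.6% (58.7 to 60.5) of narrower peaks elsewhere. Of the 98 broad peaks elsewhere with a score of at least 100, 79 overlapped (80.6%, 71.4 to 87.9). Of the 20 elsewhere with a score below 100, 3 did (15.0%, 3.21 to 37.9). Near those bands 5 of the 33 with a score below 100 did (15.2%, 5.11 to 31.9). In SNU216 the broad peaks were thus above the narrower ones in overlap once peaks near those bands were left out, and below them with all peaks. Score was not matched in this split. Of the peaks elsewhere, 57.6% of broad and 9.59% of narrower ones were in the highest-scoring group.

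In MKN28 the same split changed little. The 64 broad peaks near centromere, variable or stalk bands had a median score of 158, and 25 of them overlapped an SNU216 peak (39.1%, 27.1 to 52.1). The 1530 elsewhere had a median score of 387, and 552 overlapped (36.1%, 33.7 to 38.5). Light cytogenetic bands, which are richer in genes, held 958 of the 1594 broad MKN28 peaks (60.1%, 57.7 to 62.5; 56.4% of all) and 66 of the 160 broad SNU216 peaks (41.2%, 33.5 to 49.3; 53.8% of all).

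Some peaks were broad in both lines. There were 52 pairs, made of 52 MKN28 peaks (3.26% of the broad MKN28 peaks; 0.241% of all MKN28 peaks overlapped a broad SNU216 peak) and 52 SNU216 peaks (32.5%, 25.3 to 40.3, of the broad SNU216 peaks; 5.68% of all SNU216 peaks overlapped a broad MKN28 peak). Among the 90 broad SNU216 peaks with an MKN28 partner, the partner was broad in 57.8% (46.9 to 68.1), against 8.94% (8.27 to 9.65) for narrower SNU216 peaks with a partner. Within the highest-scoring SNU216 group the shares were 56.1% and 13.2%. Among the 577 broad MKN28 peaks with a partner, the partner was broad in 9.01% (6.80 to 11.7), against 0.697% for narrower ones. Within the highest-scoring MKN28 group the shares were 7.90% and 0.434%. In these lists, peaks wide in one line had a wide partner more often than other overlapping peaks. Width selected the members of both lists, and the widest partner of each peak was counted. Several partners were more frequent for broad peaks, as given below, so these shares are descriptions.

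The 52 pairs lay in 45 bands on 19 chromosomes, and 8 of them were within 1 Mb of a centromere, variable or stalk band. The MKN28 peak was the wider in 43 pairs and the SNU216 peak in 9. Over all 6868 overlapping pairs of the lists, the MKN28 peak was the wider in 82.2%. The smaller peak lay at least 90% inside the larger in 46 of the 52, and both scores were at least 100 in 45. The pair with the largest smaller width was in 6p11.1, with 4931 bp and a score of 65.7 in MKN28 and 4554 bp and a score of 1514 in SNU216. This interval beside the centromere was in score group 3 of 10 in MKN28 and in group 10 in SNU216.

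The second pair was in 5p15.33, the band of the telomerase gene TERT (chromosome 5, 1326270 to 1329313 in MKN28, 3044 bp, score 3100, and 1326669 to 1328714 in SNU216, 2046 bp, score 674). The SNU216 interval lay wholly inside the MKN28 one. The third was in 19q11 (1923 bp in MKN28 and 3329 bp in SNU216, scores 63.3 and 151). The fourth was in 17p13.1 (chromosome 17, 8089349 to 8091146 in MKN28 and 8089385 to 8091179 in SNU216), where the widths were nearly equal at 1798 and 1795 bp and the scores were 398 and 797. That band holds a cluster of transfer RNA genes. The fifth to eighth were in 9q13, 2q21.2, 16p11.2 and 2p11.1, with smaller widths of 1340 to 1696 bp and scores between 53.2 and 470.

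The next pairs, at ranks 9 and 10, were in 19q13.2 and 19q13.31, which carry the pregnancy-specific glycoprotein genes. The 19q13.2 pair was 1534 bp wide with a score of 1037 in MKN28 and 1322 bp with a score of 631 in SNU216. The 19q13.31 pair (chromosome 19, 43667064 to 43668462 in MKN28) was 1399 and 1320 bp wide, with scores of 673 and 425. All 9 broad MKN28 peaks of that window, 43 to 44 Mb of chromosome 19, overlapped an SNU216 peak, as did all 4 broad SNU216 peaks an MKN28 peak. Bands with more than 1 pair were 20q13.13 and 8q24.21 (3 each) and 12q13.13, 19q13.31 and 21p11.2 (2 each). In 12q13.13, the band of the type II keratin genes, the pairs scored 2942 in MKN28 with 713 in SNU216, and 785 with 417. In 20q13.13, the band of the transcription factor genes SNAI1 and CEBPB, the 3 pairs lay between 49294560 and 49378895 of chromosome 20, with MKN28 scores of 289, 553 and 1233 and SNU216 scores of 449, 574 and 1498.

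**Figure D3:**
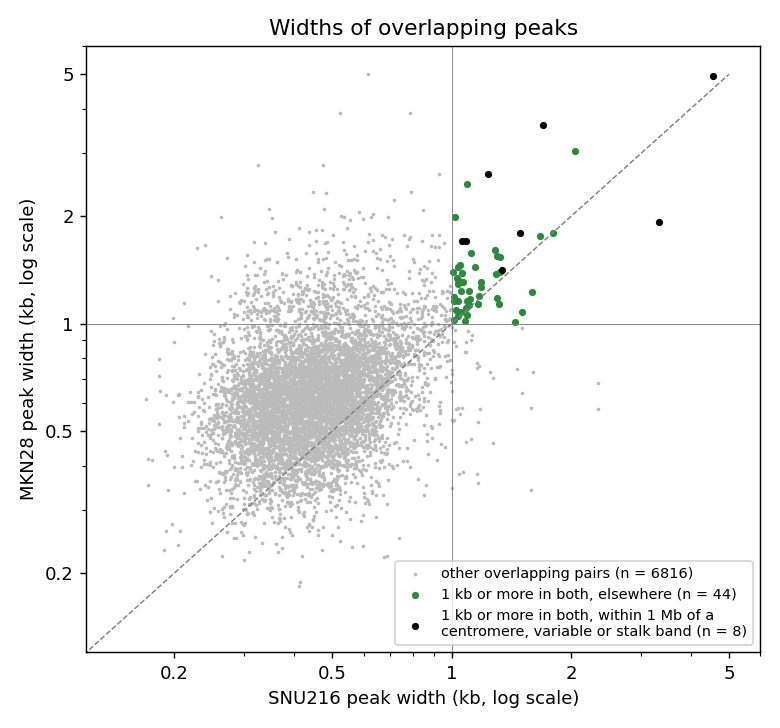
Width in MKN28 against width in SNU216 (kb, both axes log scale) of every overlapping pair of peaks, 1 point per pair. Coloured points are the 52 pairs of 1 kb or more in both lines, 8 of them (black) near a centromere, variable or stalk band, and the dashed line marks equal width. Most points lie above the line, since the MKN28 peak was the wider in 82.2% of pairs.

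A broad peak of one line could hold several peaks of the other. In MKN28, 76 of the 1594 members overlapped more than 1 SNU216 peak (4.77%, 3.78 to 5.93). Of the 37849 narrower peaks 46 did (0.122%), and of all MKN28 peaks 0.309%. A wider interval has more room for this. The most, 4, lay in the 3q22.2 member (chromosome 3, 134045465 to 134047455, 1991 bp), in the band of AMOTL2, which encodes a regulator of YAP. A neighbour in 3q22.2 (134092925 to 134094177, score 1682) held 2, as did members in 3p22.2 (1826 bp, score 2772), 2p21 (1724 bp, score 1949) and 8q24.21 (1766 bp, score 3170). In SNU216, 5 of 160 members (3.125%, 1.02 to 7.14) overlapped 2 MKN28 peaks each, in 20q13.33, 10p11.22, 20q13.12, 1p31.3 and 11q12.3. More than 1 partner was held by 0.264% of narrower and 0.304% of all SNU216 peaks.

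For each peak the widest width and the highest score among its partners were taken, and score was not matched. Several partners were more frequent for broad peaks, as given above. By these values the SNU216 partners of broad MKN28 peaks were wider and stronger than those of narrower MKN28 peaks. The partners of broad MKN28 peaks had a median width of 551 bp (quartiles 433 and 771 bp) and a median score of 155. The partners of narrower MKN28 peaks had medians of 440 bp and 114. Likewise the MKN28 partners of broad SNU216 peaks had a median width of 1084.5 bp (quartiles 743 and 1385 bp) and a median score of 331, against 621 bp and 229 for the partners of narrower SNU216 peaks. Broad MKN28 peaks with a partner scored higher than those without, with medians of 578 and 314. In SNU216 the medians were 436 and 77.5.

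Some of the strongest broad peaks had no counterpart. In MKN28 the 5 highest were in 22q11.21 (chromosome 22, 21391606 to 21392843, 1238 bp), 1p36.31 (1122 bp), 11q23.3 (chromosome 11, 115940945 to 115942570, 1626 bp), 19q13.12 (chromosome 19, 36673352 to 36674687, 1336 bp) and 8q24.21 (1979 bp), with scores of 3100, 3100, 2985, 2766 and 2575. In SNU216 they were in 8q22.3 (1177 bp, score 1183), 5p15.33 (chromosome 5, 9950 to 11831, 1882 bp, score 692), 20q11.22 (1030 bp, score 378), 11p13 (1389 bp, score 306) and 3q13.31 (1186 bp, score 256). The 5p15.33 interval is at the very end of the short arm. A site missing from a list did not pass the calling threshold in that library, and TEAD4 may still bind it.

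Broad peaks were unevenly shared among chromosomes. In MKN28 the share of a chromosome's peaks that were broad was highest on chromosomes 22 (95 of 929, 10.2%, 8.35 to 12.4) and 8 (165 of 1808, 9.13%, 7.84 to 10.6). The intervals of chromosomes 20, 15, 9 and 2 also lay above the 4.04% of the list, at 6.15%, 5.96%, 5.49% and 5.13%. The lowest shares were on chromosomes 18 (1.23%), X (1.29%), 4 (1.65%) and 6 (1.71%), and in all 11 of the 23 chromosomes had an interval below the list. The excess on chromosome 8 was on the long arm, with 156 of 1382 peaks broad (11.3%, 9.67 to 13.08) against 9 of 426 on the short arm (2.11%, 0.971 to 3.97).

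In SNU216 the intervals of chromosomes 21 (10 of 165, 6.06%, 2.94 to 10.9), 20 (21 of 522, 4.02%, 2.51 to 6.08) and 17 (17 of 531, 3.20%, 1.88 to 5.08) lay above the 1.39% of the list. All 10 broad peaks of chromosome 21 were on its short arm, which is heterochromatic, where 10 of 22 peaks were broad and 6 of 13 were so in MKN28. On chromosome 20, 16 of the 21 were on the long arm. Chromosome 22, the highest in MKN28, had 1 broad peak among 167 in SNU216 (0.599%, 0.0152 to 3.29). Chromosome 13 had 0 of 179 (floor of 3 counts, 1.68%, exact interval up to 2.04%).

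**Figure D4:**
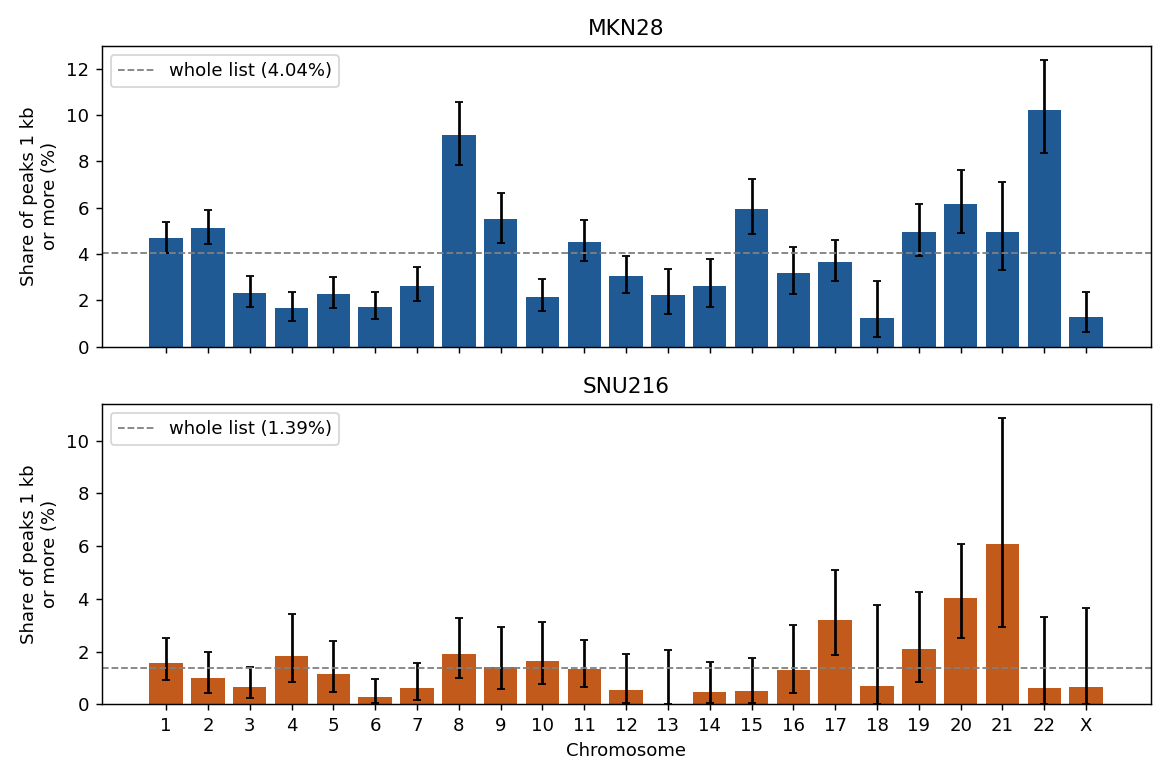
Share of each chromosome's TEAD4 peaks that were 1 kb or wider, in MKN28 (top) and SNU216 (bottom), with exact 95% intervals. The dashed line is the share in the whole list (4.04% and 1.39%). Chromosomes 22 and 8 are highest in MKN28, and chromosomes 21, 20 and 17 in SNU216.

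Some windows held many broad peaks. Of the broad MKN28 peaks, 44.1% had another broad peak within 100 kb (midpoint to midpoint), and of the broad SNU216 peaks 43.1%. No like share was computed for equally many other peaks. The sets differ in size, so these shares do not compare the lines. The 5 fullest windows of 1 Mb held 106 of the 1594 MKN28 members (6.65%, 5.48 to 7.99) and 0.639% of all MKN28 peaks. They held 29 of the 160 SNU216 members (18.1%, 12.5 to 24.98) and 0.668% of all SNU216 peaks. The windows were chosen for these counts. Within 50 kb of a broad peak lay a median of 4 other peaks of its own list in MKN28, against 2 for narrower peaks, and in SNU216 2 against 1. Across the 10 score groups the MKN28 medians were 3 to 5 for broad and 2 to 3 for narrower peaks. In the eighth group both medians were 3, and the lowest group held only 5 broad peaks.

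In 22q11.21, 72 of 179 MKN28 peaks and 0 of 17 SNU216 peaks were broad. For SNU216 the floor was 17.65%, and the exact interval reached 19.51%. The band holds CRKL, which encodes an adaptor in tyrosine kinase signalling, and the repeats that mediate its recurrent deletions. From 18 to 22 Mb the broad MKN28 peaks had a median width of 1566 bp and a median score of 204 (range 54.6 to 3100), and 21 of the 72 were at least 2000 bp wide. The whole MKN28 list held 47 members of that width. In the window from 21 to 22 Mb 33 of 47 peaks were broad, and in that from 20 to 21 Mb 21 of 47. The strongest of the latter was at 20922815 to 20924873 (2059 bp, score 2095), 4 bp from another broad peak of 1852 bp (score 1609), and both overlapped SNU216 peaks. Of the 72 broad peaks, 6 overlapped an SNU216 peak, as did 7 of the 102 narrower MKN28 peaks between 18 and 22 Mb.

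On the long arm of chromosome 8, 8q24.21 held 38 broad MKN28 peaks among 134 and 8q24.22 held 27 among 65. SNU216 had 3 broad peaks among 71 and 1 among 20 in these bands. In the window from 128 to 129 Mb, 17 of 53 MKN28 peaks were broad (32.1%, 19.9 to 46.3), and 7 of the 17 overlapped an SNU216 peak. In the window from 131 to 132 Mb, 15 of 39 MKN28 peaks were broad (38.5%, 23.4 to 55.4), with scores between 62.05 and 2514 and a median of 252, and 7 of the 15 overlapped an SNU216 peak. All 3 broad SNU216 peaks of 8q24.21 overlapped an MKN28 peak. An adjoining pair in 8q24.22 (chromosome 8, 131509715 to 131511022 and 131511024 to 131512230) scored 1996 and 2514 in MKN28, and its SNU216 partners scored 507 and 325.

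In the window from 94 to 95 Mb of chromosome 1 (1p22.1 to 1p21.3), 20 of 66 MKN28 peaks and 0 of 19 SNU216 peaks were broad. Band 1p22.1 holds BCAR3, which encodes a focal adhesion signalling protein. Scores of the 20 ran from 90.9 to 2870 (median 359.6), and 6 of the 20 overlapped an SNU216 peak. The strongest was at 94293183 to 94294450 (1268 bp, score 2870, SNU216 partner score 149). A run of 8 broad peaks between 94049764 and 94138626 had no SNU216 partner. In 15q26.2, the band of the nuclear receptor gene NR2F2, 12 of 39 MKN28 peaks between 96 and 97 Mb of chromosome 15 were broad and 0 of 13 SNU216 peaks. In the 8q22.3 window from 102 to 103 Mb, the band of the epithelial transcription factor gene GRHL2, 10 of 41 MKN28 and 1 of 15 SNU216 peaks were broad.

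The fullest SNU216 windows were of more than one kind. In 4p11 (chromosome 4, 49 to 50 Mb) 7 of 12 SNU216 peaks were broad, with widths of 1080 to 3512 bp and scores of 54.5 to 156, and none overlapped an MKN28 peak. In the 1 Mb window of chromosome 1 that spans 1q12 and 1q21.1 (first broad peak at 142554877) 6 of 12 were broad, with scores of 50.2 to 104 and 0 partners. MKN28 had 5 broad peaks among 8 in the same window, none of them sharing bases with a broad SNU216 peak. In 21p11.2 (chromosome 21, 9 to 10 Mb) 5 of 11 SNU216 and 5 of 8 MKN28 peaks were broad, and 2 of the SNU216 ones overlapped an MKN28 peak. These 3 windows lie beside centromeres or heterochromatin, and their broad SNU216 peaks did not exceed a score of 156.

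The other 2 of the 5 fullest SNU216 windows lay in chromosome arms. In 17q12 (chromosome 17, 36 to 37 Mb) 6 of 26 SNU216 peaks were broad, against 1 of 42 in MKN28. A run of 4 of them with at most 379 bp between neighbours spanned 7268 bp (36289840 to 36297107), scored 54.3 to 120.4 and had 0 MKN28 partners. It was the longest run of broad peaks with at most 1 kb between neighbours in SNU216. Band 17q12 also holds the receptor gene ERBB2, and further along it a pair of broad peaks (37860461 to 37861509 and 37861874 to 37862992) scored 51.4 and 536. From 36 to 39 Mb, 10 of 55 SNU216 peaks (18.2%, 9.08 to 30.9) and 4 of 102 MKN28 peaks (3.92%, 1.08 to 9.74) were broad.

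In 10p11.22 (chromosome 10, 33 to 34 Mb), the band of the integrin gene ITGB1, 5 of 16 SNU216 peaks and 0 of 19 MKN28 peaks were broad. For MKN28 the floor of 3 counts was 15.8%, and the exact interval reached 17.65%. The SNU216 peaks had widths of 1644, 2332, 1039, 1463 and 1191 bp and scores of 184, 1884, 485, 1291 and 125. The peaks of 2332, 1039 and 1463 bp overlapped MKN28 peaks, whose best scores were 174, 105 and 140. In 20q13.13 the lines shared the 3 pairs given above. From 48 to 50 Mb of chromosome 20, 14 of 115 MKN28 peaks (12.2%) and 4 of 35 SNU216 peaks (11.4%) were broad, and all 4 of the latter overlapped MKN28 peaks.

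**Figure D5:**
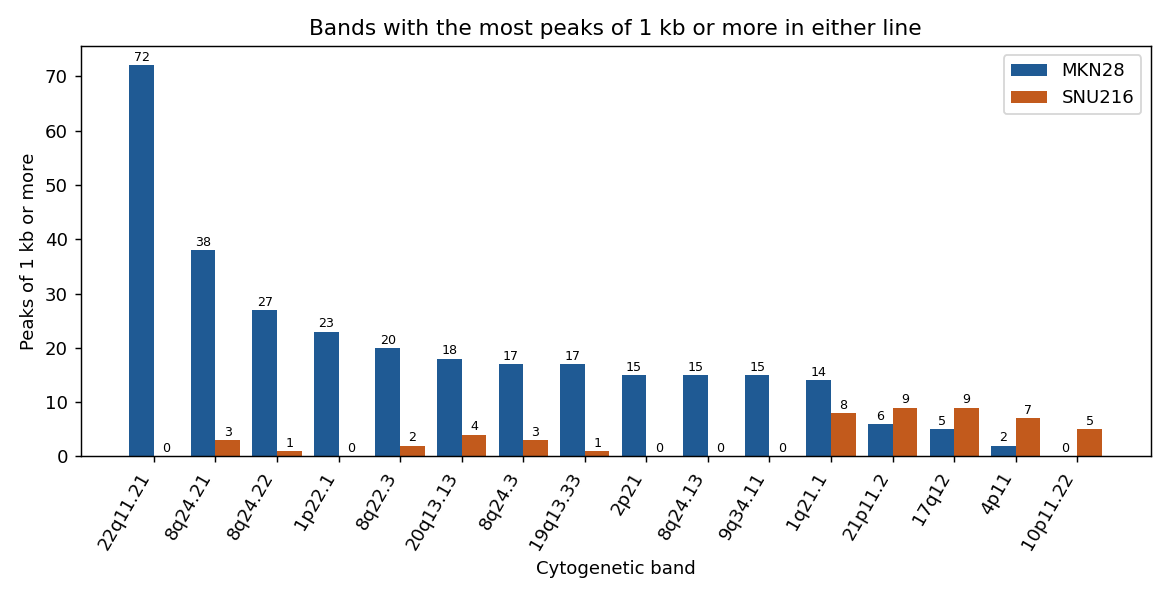
Number of TEAD4 peaks of 1 kb or more per cytogenetic band in MKN28 and SNU216, for the bands with the most in either line, with the count above each bar. Band 22q11.21 has 72 in MKN28 and 0 in SNU216, and 21p11.2, 17q12, 4p11 and 10p11.22 have more in SNU216 than in MKN28.

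Copy number of the regions was not measured in these files, so TEAD4 occupancy and the amount of DNA cannot be told apart in windows where many neighbouring peaks were wide in 1 line.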

How the data were processed

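TEAD4 ChIP-seq and input libraries of MKN28 and SNU216 were made by the authors, 1 of each per line. Per the submitters' processing notes, the build was hg19 and the tools were Bowtie2 2.0.0, CASAVA 1.8 and MACS, with the MACS version and all settings not given in the sources used here. For each TEAD4 library 1 peak list was deposited by the authors, with positions and a peak caller score of unstated scale. Score and width can both rise with depth, so scores were grouped within a list.

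Widths were end minus start, and printed starts were made 1-based. Band positions (hg19) were read from the cytoband table of the R package circlize. Overlap meant at least 1 shared bp. Shares carry exact 95% Clopper-Pearson intervals, and 0 counts a floor of 3 counts. No test over samples was possible with 1 library per line. The members, lists and windows were chosen with earlier results of these data known. The regions named were the 10 widest, the 5 highest- and 5 lowest-scoring members, the 5 strongest without a partner and the 5 fullest windows of each list, the 10 pairs of largest smaller width and the peaks nearest the width limit. Other regions named (further bands, runs and windows) were chosen after their values were seen. Gene positions and sequences were not analysed here, since the reference tables used GRCh38. The overlap code was tested on simulated data with 11522 peaks, and found 100% of planted overlaps. The planted peaks were exact copies of MKN28 intervals, so no partial overlap was planted. Of the other simulated peaks, placed at random, 1.649% overlapped an MKN28 peak. The tools were scipy 1.17.1, pandas 2.3.3 and numpy 2.4.6 under Python 3.11.15.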

Additional observations from a re-analysis of the deposited data

Results flagged for a closer look

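With a width limit of 1000 bp and all peaks, the difference in overlap between broad and narrower peaks went opposite ways in the lines, which other settings did not all keep. In MKN28 the broad peaks were 19.9 percentage points above the narrower ones, and in SNU216 they were below them (-3.097 points). The difference between the lines was not tested, since each has 1 library, and the SNU216 interval for broad peaks (48.2 to 64.1%) held the share of narrower ones (59.3%). In SNU216 the broad peaks were above the narrower ones, as in MKN28, at 750 bp (72.14% and 58.67%), for the widest 5% (73.09% and 58.58%), in lists of equal length (41.25% and 36.02%) and without the 5 fullest windows per list (63.28% and 59.34%). The same held without peaks near centromere bands or chromosome ends (66.67% and 59.58%) or near centromere, variable or stalk bands (69.49% and 59.6%).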

How the results depend on the processing

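No paired analysis was possible because each line has 1 TEAD4 library, and for the same reason no replicate could be left out. Gene position and sequence comparisons were not run, for want of hg19 references. The order of broad and narrower peaks in overlap turned in SNU216 under 6 alternatives (given above with both shares). In MKN28 it turned under 1, when 50% of both peaks had to be shared. A partner less than 50% as wide as the broad peak cannot meet that rule. The share of peaks that were broad in MKN28 was 13.93% with a width limit of 750 bp, 0.5197% with 1500 bp, 5.0% for the widest 5%, 7.483% among scores of at least 100, 3.772% without the 5 fullest windows per list and 11.17% in lists of equal length. In SNU216 it was 4.704%, 0.3558%, 4.999%, 2.2%, 1.14% without centromere bands and chromosome ends, 1.125% without the 5 fullest windows and 1.053% without centromere, variable and stalk bands (added after seeing the data).

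The overlap of broad MKN28 peaks with the other list, beside that of narrower ones, was 33.08% against 14.51% (750 bp), 41.46% against 16.97% (1500 bp), 26.22% against 16.08% (scores of at least 100), 21.39% against 15.73% (midpoints within 200 bp), 13.86% against 14.08% (50% of both shared) and 39.78% against 34.65% (equal lengths). In SNU216 it was 72.14% against 58.67%, 29.27% against 59.41%, 73.09% against 58.58% (widest 5%), 68.22% against 68.69% (scores), 66.67% against 59.58% (without centromere bands and ends), 69.49% against 59.6% (without centromere, variable and stalk bands), 36.88% against 54.93% (midpoints), 45.0% against 48.23% (50% shared) and 41.25% against 36.02% (equal lengths). The share broad in both lines was 5.204% of MKN28 (750 bp) and 9.483% (widest 5%), and 52.95% of SNU216 (750 bp), 14.63% (1500 bp), 42.06% (scores of at least 100) and 25% (midpoints).

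The SNU216 ratio of median scores, broad to narrower, was 1.251 at 1500 bp and 4.267 without centromere, variable and stalk bands, against 2.675. SNU216 chromosomes with an interval below the list numbered 5 (750 bp), 0 (1500 bp) and 6 (widest 5%). The fullest windows held 10.66% of MKN28 members with windows of 5 Mb and 7.986% of the widest 5% in SNU216. With variable and stalk bands added, 4.015% of MKN28 members lay near. The causes of these shifts were not tested. Depth is unknown and limits every count.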
